A study of Mactra quadrangularis with 9 samples.

Results

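In gill of the surf clam *Mactra quadrangularis* (*Mactra veneriformis* in the study's title), 100 of the 24722 genes of the deposited table were lower at each of 2 steps down in oxygen. They were chosen from the deposited counts, expressed as counts scaled to the library total (CPM) and averaged over the 3 libraries of each oxygen level, with 0.5 CPM added to each mean. A gene was kept when its control mean was at least 10, control over 4 mg/L at least 1.5, 4 over 2 mg/L between 1.5 and 4, and control over 2 mg/L at least 3. Of 8404 genes that reached the control minimum, 1.19% met the rest of the rule. The choice used all 9 libraries and all 3 contrasts, so the values of the 100 genes below are a description and carry no test. Adding the offset before the minimum matters for 2 of them, Mve12G011280 at 9.51 CPM and Mve01G003790 at 9.64 CPM in control, and 98 genes remained when the minimum was applied without it.

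Clams were kept for 24 h in aerated water at 7.5 mg/L dissolved oxygen (control) or in water brought to 4 or 2 mg/L with nitrogen under a plastic cover, and poly(A) RNA of gill was sequenced in 3 libraries per level. No group was fed, and temperature and salinity were the same in all 3. Whether the 3 libraries of a level are separate clams, and how many clams each holds, the labels do not say. The p-values given for genes outside the 100 therefore measure variation between libraries alone, and that may be technical.

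The bivalve gill is a sheet of ciliated and mucous epithelium that takes up oxygen and filters food, with haemolymph and its cells inside. A cell that copies its DNA needs a ring-shaped helicase built of minichromosome maintenance (MCM) subunits, a sliding clamp and the polymerases that the clamp holds on the template, and such genes are commonly read as a mark of dividing cells. Falling oxygen is known in many animals to bring a saving of energy, in which costly synthesis is slowed.

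The 100 genes together took 0.358 to 0.362% of the counts in the control libraries. Their summed level was 3584, 3608 and 3622 CPM in control, 1483, 1549 and 1577 CPM at 4 mg/L, then 690, 704 and 711 CPM at 2 mg/L, here in rising order within each level. Libraries of a level lay close together and the 3 levels did not overlap. Library totals ran from 26994566 to 32246147 counts, with 20316 to 20958 genes counted, and no library stood apart in depth. The 94 genes whose descriptions match ciliated epithelium, the tissue that the label gill implies, summed to 11378 to 11483 CPM in control, and 90 of them passed the filter of a mean of 1 FPKM (the authors' unit of level per transcript length) used for tests.

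**Figure D1:**
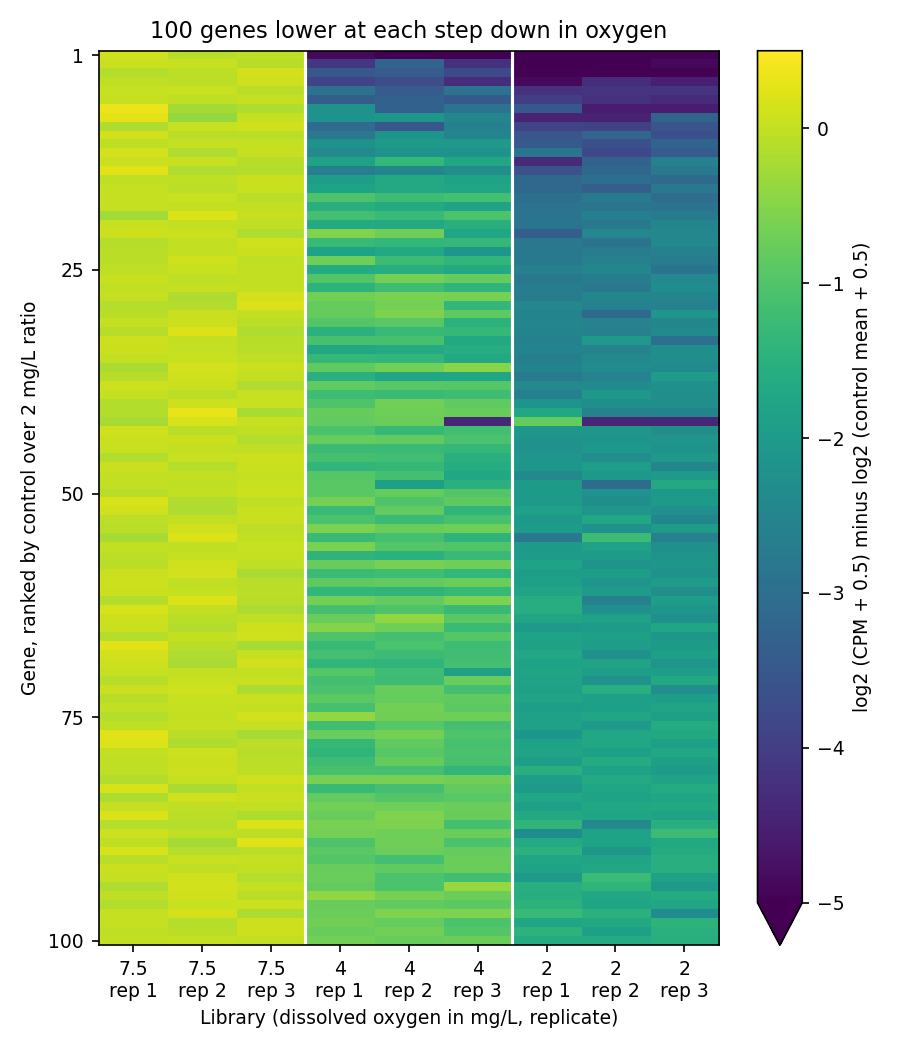
Level of the 100 genes in each of the 9 libraries, as the log2 of CPM + 0.5 minus the log2 of the control mean + 0.5. Rows are genes ranked from the largest (top) to the smallest control over 2 mg/L ratio, columns are libraries grouped by oxygen, and darker cells are lower; the 5 genes whose 4 and 2 mg/L libraries overlap are among the rows.

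The median gene was 2.16 times as high in control as at 4 mg/L (range 1.51 to 31.2) and 2.01 times as high at 4 as at 2 mg/L (range 1.504 to 3.75). Control over 2 mg/L had a median of 4.28 and a range of 3.02 to 64.4. Over the 8404 genes that reached the control minimum, the same medians were 1.14, 1.08 and 1.23. The ratio was at least 5 in 38 genes, at least 10 in 11 and at least 20 in 4. At 2 mg/L, 80 of the 100 genes lay below 10 CPM and 8 below 1 CPM. The rule fixes the lower limits of these ranges and the upper limit of the second step.

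The step from control to 4 mg/L was the larger in 60 genes and the step from 4 to 2 mg/L in 40. The first step spans 3.5 mg/L of oxygen and the second 2 mg/L. Per mg/L, the difference on the log2 scale was larger in the second step in 79 of the 100 genes, with a median of 0.317 per mg/L in the first step and 0.505 in the second. The rule sets the same lower limit on both steps, so per mg/L its floor is higher in the shorter second step. The lowest values among the 100 genes were 0.169 per mg/L in the first step and 0.294 in the second. The rule also sets an upper limit on the second step alone. Both counts thus depend on the rule, no steeper step is read from them, and the same shares outside the rule were not counted. With 3 oxygen levels nothing finer than these 2 steps can be read.

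**Figure D2:**
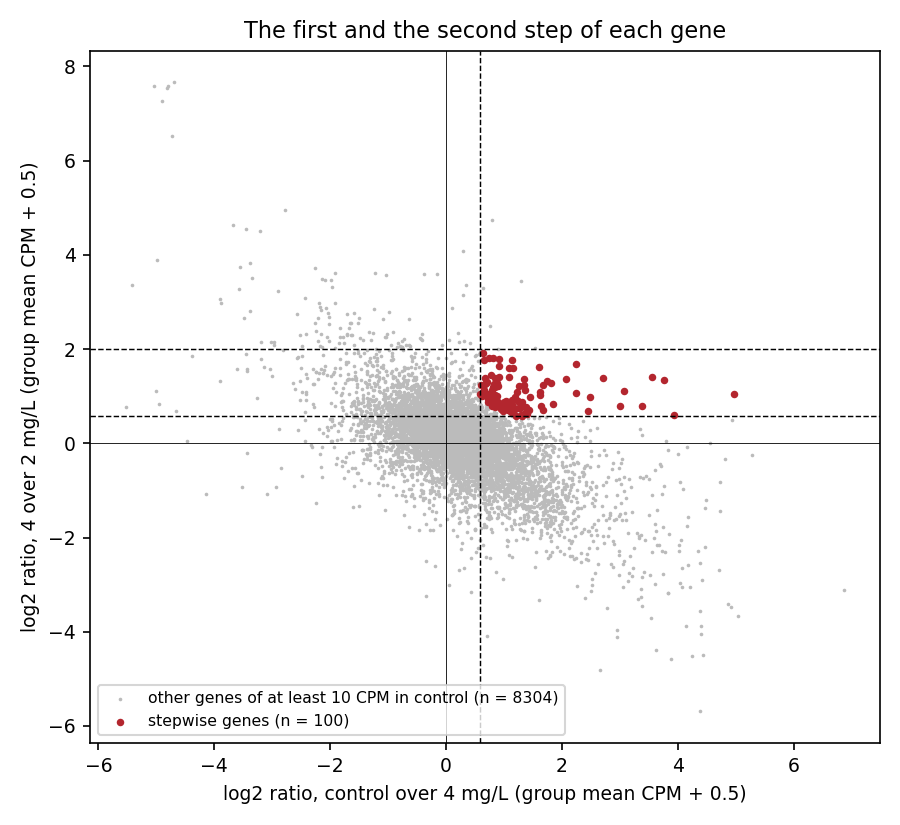
The log2 ratio of control over 4 mg/L (x axis) against that of 4 over 2 mg/L (y axis) for the 100 stepwise genes (red) and 8304 other genes of at least 10 CPM in control (grey), from group means + 0.5. Dashed lines mark the limits of the rule; most grey points lie near the centre or in the upper left and lower right, where the steps go opposite ways.

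All 3 control libraries lay above all 3 at 4 mg/L in 100 of the 100 genes (49.6% of the 8404 genes), and all 3 at 4 mg/L lay above all 3 at 2 mg/L in 95 (42.4%). Both orders held together in 95 of the 100, beside 11.4% of the 8404. Of the 99 genes that passed the filter for tests, edgeR's quasi-likelihood test called 98 lower at 4 than at 7.5 mg/L (34.5% of the 15397 genes tested), 96 lower at 2 than at 4 mg/L (32.1%) and 98 lower at 2 than at 7.5 mg/L (32% of them). These counts follow from the rule and nothing is read from them. When the rule was applied with replicate 1, 2 or 3 of every level left out, it chose 101, 103 and 96 genes. In the replicate left out, 100, 100 and 94 of these were ordered control above 4 above 2 mg/L, and 57, 62 and 60 met every limit of the rule. Since the libraries of a level may be technical, this is no independent check, and the same share over the 8404 genes was not counted. Small means were the least even. Over the 100 genes the median coefficient of variation between the 3 libraries was 6.70% in control, 11.1% at 4 mg/L and, over the 98 genes with a count, 14.7% at 2 mg/L.

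The 5 genes with overlapping libraries were all below 15 CPM in control. Mve04G011760, an uncharacterized protein, read 8.71, 11.4 and 10.4 CPM in control, 5.56, 5.87 and 0 at 4 mg/L, then 5.58, 0 and 0 at 2 mg/L. Its libraries at 4 and 2 mg/L were thus either above 5 CPM or at 0, and the group means lie between the libraries. The others were Mve10G006340, Mve02G016880, a DMRT3-like gene and an ASZ1-like gene, and each had only some of its libraries out of order.

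Among the named genes, 6 serve DNA replication. They are 4 subunits of the MCM helicase, out of 6 genes of at least 10 CPM in control that carry the GO term MCM complex, with the sliding clamp PCNA and the catalytic subunit of DNA polymerase delta, which extends new DNA strands on that clamp. KEGG places 7 of the 100 genes in DNA replication, out of 23 genes of at least 10 CPM in control. The seventh, Mve16G000210, is described as a phosphoinositide phosphodiesterase delta-4, so that its name and its KEGG entry differ.

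The MCM5-like gene (Mve02G013640, chromosome 2, 42560363 to 42572513, plus strand in the coordinates of the deposited table) read 47.8, 48.6 and 45.2 CPM in control. It read 22.7, 19.8 and 21.1 CPM at 4 mg/L, then 5.62, 6.62 and 5.29 CPM at 2 mg/L. Means were 47.2 ± 1.76, 21.2 ± 1.46 and 5.84 ± 0.691 CPM (SD, n = 3), a control over 2 mg/L ratio of 7.52. The groups were separated by several times the spread within them.

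The MCM7-like gene (Mve15G000520) read 21.4, 20.4 and 20.7 CPM in control, 10.3, 13.1 and 11.7 at 4 mg/L, then 2.60, 2.80 and 3.50 at 2 mg/L. The MCM6-like gene (Mve07G000250) read 16.9, 16.5 and 21.2 CPM in control, 10.2, 11.3 and 6.83 at 4 mg/L, then 2.89, 2.64 and 2.59 at 2 mg/L. The MCM4-like gene (Mve06G007430) read 40.0, 31.9 and 34.9 CPM in control, 22.4, 17.5 and 19.4 at 4 mg/L, then 8.34, 7.03 and 8.47 at 2 mg/L. In these MCM genes the libraries of the 3 oxygen levels did not overlap, and the second step was the larger: 3.52 for MCM7, 3.10 for MCM6 and 2.40 for MCM4, against first steps of 1.75, 1.88 and 1.78.

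PCNA (Mve01G002720, described as partial) read 53.8, 57.0 and 60.3 CPM in control, 30.4, 32.8 and 28.7 at 4 mg/L, then 13.6, 11.97 and 13.3 at 2 mg/L. Per length it was the most abundant of the 6 replication genes, at 43.2 ± 2.47 FPKM in control (SD, n = 3), where MCM5 had 13.2 ± 0.510 FPKM. The polymerase delta catalytic subunit (Mve16G007650) read 33.1, 34.4 and 32.5 CPM in control, 12.8, 12.5 and 10.3 at 4 mg/L, then 4.98, 5.82 and 6.57 at 2 mg/L. It was the only one of the 6 with the larger first step (2.74, then 1.97).

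The rest of the replication machinery was counted from 2 lists of words in the descriptions. The wider list, on DNA replication and cell cycle, also takes in genes such as CDC42 and CDC37 that serve other ends. Of its 83 tested genes outside the 100, edgeR called 21 higher and 21 lower at 4 than at 7.5 mg/L (25.3% lower, beside 34.5% of all genes tested). At 2 against 7.5 mg/L it called 35 lower and 11 higher (42.2% lower, beside 32% of all). A narrower list of replication fork and nucleotide supply genes, drawn up after values were seen, had 31 such genes. At 4 mg/L 6 rose and 6 fell (19.4% lower), while at 2 against 7.5 mg/L 19 fell and 2 rose (61.3% lower). Its median log2 change was -0.09 at 4 mg/L and -0.89 at 2 mg/L against control, beside -0.0047 and -0.03 over all genes tested.

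The other 2 subunits of the helicase ring lay outside the rule. MCM2 (Mve08G013850) read 39.0, 33.8 and 39.5 CPM in control, 28.1, 33.4 and 29.8 at 4 mg/L, then 14.2, 10.1 and 11.4 at 2 mg/L. MCM3 (Mve18G003650) read 23.8, 18.0 and 23.0 CPM in control, 19.1, 19.5 and 19.3 at 4 mg/L, then 6.54, 4.84 and 4.86 at 2 mg/L. Neither passed the test at 4 against 7.5 mg/L (edgeR adjusted p = 0.0852 for MCM2 and 0.559 for MCM3), and both fell from 4 to 2 mg/L (adjusted p = 1.4e-07 and 2.67e-08). Both missed the rule by their first step alone, which was above 1 in each. A p that misses the threshold does not show that their level was the same at 4 mg/L, and whether their first step differs from that of the 4 chosen subunits was not tested.

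The 70 kDa subunit of replication protein A (Mve11G015240), which coats single-stranded DNA, was at 18.4, 15.2 and 10.7 CPM in control, at 4 and at 2 mg/L. That subunit did not pass at 4 against 7.5 mg/L (edgeR adjusted p = 0.148) and fell by 0.58 on the log2 scale at 2 against 7.5 mg/L (adjusted p = 0.000749). The large subunit of ribonucleotide reductase (Mve09G000540), which makes deoxynucleotides, went up before it went down: 17.8 CPM in control, 27.6 at 4 mg/L and 6.23 at 2 mg/L (edgeR adjusted p = 0.000438 and 8.09e-09 for the 2 steps). A DNA ligase 1-like gene (Mve18G000560), which seals new strands, rose from 2.00 to 17.8 CPM at 4 mg/L and stood at 9.58 CPM at 2 mg/L (edgeR adjusted p = 5.4e-11 and 2.84e-09 against control). WDHD1-like (Mve02G016460), a link between helicase and polymerase, had 9.36, 1.93 and 1.05 CPM and lay just under the control minimum. Other genes outside the rule also had lower means at each step. The small reductase subunit (Mve03G001760) was at 20.2, 15.1 and 8.07 CPM (edgeR adjusted p = 0.0444 and 0.000286 for the 2 steps). DNA polymerase alpha subunit B-like (Mve02G017580) was at 8.76, 4.19 and 2.23 CPM (edgeR adjusted p = 0.000791 and 0.00839). The 32 kDa subunit of replication protein A (Mve03G015100) was at 15.9, 14.0 and 8.40 CPM (edgeR adjusted p = 0.412 and 0.000387).

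**Figure D3:**
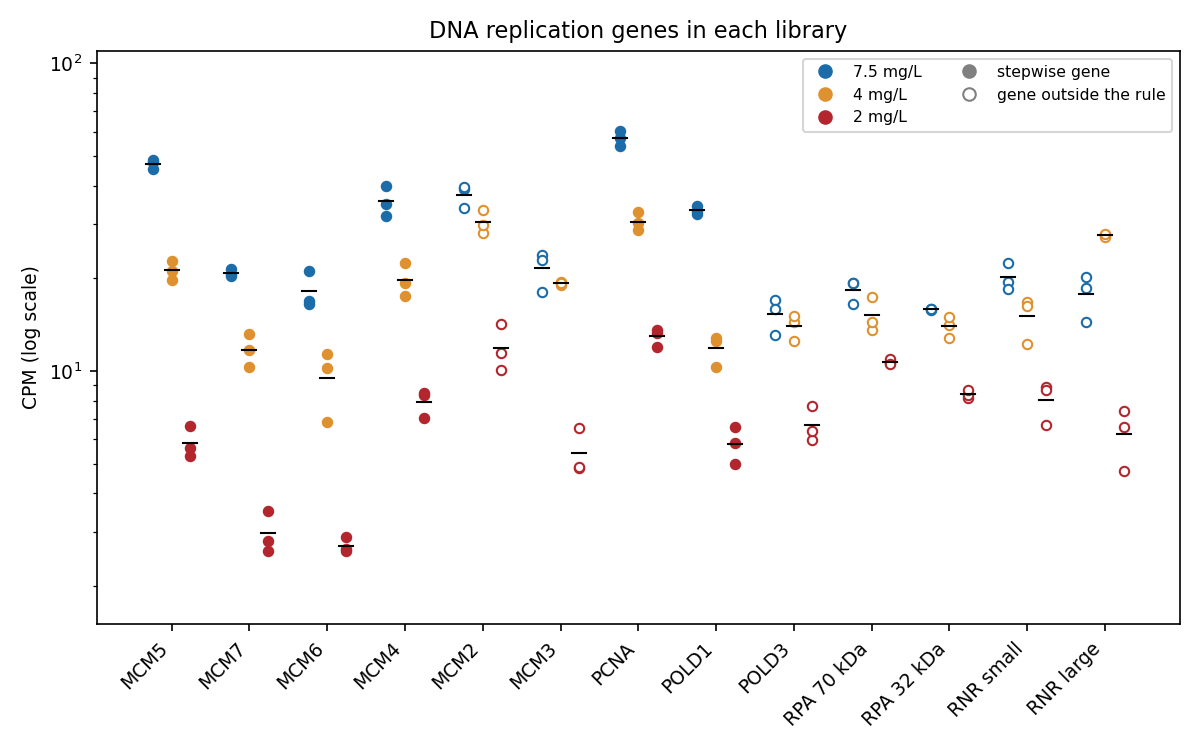
CPM of 13 DNA replication genes (log axis) in each library at 7.5 (blue), 4 (orange) and 2 mg/L (red); bars are group means, filled points are genes of the 100 and open points genes outside the rule. In MCM5, MCM7, MCM6, MCM4, PCNA and POLD1 the 3 colours form separate descending groups. They also do so, in open points, in RNR small (ribonucleotide reductase) and, with blue and orange closer, in RPA 32 kDa. In MCM2, MCM3, POLD3 and RPA 70 kDa blue and orange points meet or lie close and red lies below. RNR large has its highest points at 4 mg/L.

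Genes of DNA repair and of the germline were 6 of the 100. MEIOB-like (Mve01G011640), known in mammals as a meiotic recombination factor that binds single-stranded DNA, read 14.0, 14.7 and 17.0 CPM in control and 0.880, 0.973 and 0.651 CPM at 4 mg/L. It had no count in any library at 2 mg/L. Against a floor of 3 counts over that group (0.0332 CPM) it was at least 458-fold lower than in control, a bound that covers counting error only and may be too high, since a count is not an independent molecule.

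MCM8-like (Mve16G011100), a helicase of recombination repair, read 20.6, 23.7 and 24.7 CPM in control, 2.29, 1.57 and 3.44 at 4 mg/L, then 1.08, 1.05 and 1.497 at 2 mg/L. Its first step was 8.00 and its second 1.72, the reverse of the order seen in the replicative MCM genes, and the 3 levels did not overlap. DMRT3-like (Mve03G012850), of the doublesex family of sexual development regulators, had means of 11.1, 3.97 and 2.14 CPM. ASZ1-like (Mve08G008000), which in mouse acts in the piRNA pathway of germ cells, had 11.6, 4.45 and 2.77 CPM. Both overlapped between 4 and 2 mg/L. Artemis-like (Mve08G015930), a nuclease that trims broken DNA ends, had 15.2, 8.41 and 4.36 CPM, and the apoptosis-enhancing nuclease (Mve13G007160) 15.2, 9.07 and 4.52 CPM.

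Other germline genes went several ways. Synaptonemal complex protein 3 (Mve16G004750), of the paired meiotic chromosomes, was lower at each step, at 0.439, 0.147 and 0.0423 CPM, and a HORMA domain-containing 1-like gene (Mve12G011140), of the same chromosomes, read 2.07 CPM in control, 0 at 4 mg/L and 0.435 CPM at 2 mg/L. Both were too low to be tested. The HORMA gene's control libraries lay above all others, and the levels of the other gene overlapped. Vitellogenin-6, the yolk protein gene, had no count in control or at 2 mg/L. Synaptonemal complex protein 2 had none there either, and nanos-like stayed under 0.5 CPM on average in each level. Piwil1 (Mve11G006630), which binds piRNAs, was at 47.6, 71.9 and 48.0 CPM and rose from control to 4 mg/L (edgeR adjusted p = 1.76e-06). Piwil2 (Mve01G006280), at 26.4, 27.9 and 23.5 CPM, passed in none of the 3 comparisons (edgeR adjusted p from 0.223 to 0.811). A mutS homolog 5-like gene (Mve03G010010) was at 3.18, 5.08 and 6.80 CPM and the meiotic recombination gene SPO11 (Mve03G011230) at 0.952, 1.17 and 1.69 CPM. Both were higher at 2 than at 7.5 mg/L (edgeR adjusted p = 0.00299 and 0.0300), as was Piwil1 (0.0336). This germline list was drawn up after values were seen. Of its 5 tested genes outside the 100, 3 rose and 0 fell in that comparison, beside 31.5% higher and 32% lower of all genes tested. Under total-count scaling 1 rose and 0 fell. The 76 genes outside the 100 with gonad words in their descriptions summed to 2845 to 2875 CPM in control, 1977 to 2014 CPM at 4 mg/L and 1815 to 1881 CPM at 2 mg/L. Of the 61 tested, 27 fell and 18 rose at 4 mg/L by edgeR (44.3% lower, beside 34.5% of all genes), and 25 fell and 14 rose at 2 against 7.5 mg/L (41.0% lower, beside 32%). From 4 to 2 mg/L 15 fell and 16 rose (24.6% lower, beside 32.1%), which under total-count scaling were 21 and 14. The part of gonad tissue in the values of the MEIOB-like and related genes was not tested.

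RNA processing was represented by 7 genes, with ratios of control over 2 mg/L from 3.05 to 5.61. The largest was that of a U1 snRNP A-like gene (Mve16G000670), whose product recognises the start of introns as part of U1, at 24.7, 23.3 and 21.8 CPM in control, 10.6, 10.5 and 7.07 at 4 mg/L, then 3.46, 5.28 and 2.48 at 2 mg/L. The levels of oxygen did not overlap in this gene. Beside it stood DHX8-like (Mve12G000290), a helicase that releases spliced RNA, at 18.3, 10.03 and 5.67 CPM, and an hnRNP A1-like gene (Mve19G002600), a regulator of splicing, at 12.8, 6.18 and 3.12 CPM.

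Further steps of RNA metabolism were also present. IMP3-like (Mve14G011080), of the U3 particle that processes ribosomal RNA, was at 15.8, 6.60 and 4.22 CPM. Cleavage stimulation factor 1-like (Mve04G013490), which acts at the 3' ends of messages, was at 13.1, 8.06 and 3.06 CPM. DGCR8-like (Mve11G003180), the partner of Drosha in microRNA processing, was at 11.6, 5.59 and 3.28 CPM, and trimethylguanosine synthase-like (Mve03G003810), which modifies caps of small nuclear RNAs, at 10.1, 4.57 and 2.59 CPM. The first step was the larger in 6 of the 7. Outside the 100, 95 of 274 tested genes of ribosome biogenesis and RNA processing fell and 59 rose at 2 against 7.5 mg/L by edgeR (34.7% lower, near the 32% of all genes). In this test these 7 thus stand in a class that as a whole lay close to the background. Under total-count scaling 143 of the 274 fell and 34 rose. More of all genes were called lower by that scaling as well, but a smaller share than in this list.

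Lipid metabolism gave 8 genes. Fatty acid synthase (Mve01G012410), which builds long-chain fatty acids, read 25.1, 31.2 and 30.0 CPM in control, 15.9, 17.8 and 20.5 at 4 mg/L, then 4.60, 5.25 and 5.07 at 2 mg/L. Its second step, 3.39, was over its first, 1.58, and the 3 levels did not overlap. An acyl-CoA dehydratase-like gene (Mve10G011680, very-long-chain 3-hydroxyacyl-CoA dehydratase 3), which acts in the elongation of fatty acids, was at 14.7, 8.93 and 3.37 CPM.

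Sphingomyelin phosphodiesterase 4-like (Mve11G011040), which splits sphingomyelin, had a ratio of control over 2 mg/L of 3.02 (31.2 CPM in control and 17.7 at 4 mg/L). The lipid genes also held a retinal dehydrogenase 1-like gene, a 17-beta-hydroxysteroid dehydrogenase 14-like gene, an acyl-CoA N-acyltransferase-like gene and the phosphodiesterase delta-4. The control means of these 4 were at most 20.8 CPM and the ratios between 3.24 and 3.51. Of 181 tested genes of fatty acid and lipid metabolism outside the 100, edgeR called 91 higher and 43 lower at 4 mg/L (23.8% lower, beside 34.5% of all genes). From 4 to 2 mg/L 87 were lower and 43 higher (48.1% lower, beside 32.1% of all genes). At 2 against 7.5 mg/L 54 were lower and 55 higher (29.8% lower, beside 32%). Under total-count scaling, by which more of all genes were called lower as well, these were 74 and 40.

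Glutathione, efflux and purine oxidation formed a group of 4. The rho glutathione S-transferase, an enzyme that couples glutathione to reactive compounds, was the most abundant of them per length, at 129 ± 1.45 FPKM in control (SD, n = 3). It lies on an unplaced contig and read 140, 136 and 138 CPM in control, 86.5, 84.0 and 82.8 at 4 mg/L, then 37.0, 41.3 and 43.3 at 2 mg/L. The omega-class transferase (Mve06G012360) was at 35.2, 15.7 and 8.01 CPM. ABCC1 (Mve07G010320), a pump that exports glutathione conjugates, read 72.4, 75.7 and 75.9 CPM in control, 27.6, 26.4 and 30.2 at 4 mg/L, then 18.8, 18.8 and 16.3 at 2 mg/L. Xanthine dehydrogenase-like (Mve16G004340), the last step of purine breakdown to uric acid, was at 12.7, 7.10 and 2.96 CPM. In none of these 4 did libraries of different oxygen levels overlap. Outside the 100, 31 of 65 tested antioxidant and glutathione genes fell and 14 rose at 2 against 7.5 mg/L by edgeR (47.7% lower, beside 32% of all).

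Membrane proteins were led by a zinc transporter ZIP10 (Mve15G000530, chromosome 15, 1744855 to 1772916, minus strand), which brings zinc into the cytosol. It read 141, 140 and 139 CPM in control, 47.1, 44.7 and 38.9 at 4 mg/L, then 18.3, 18.4 and 18.1 at 2 mg/L. Its ratio was 7.49, and the 3 levels did not overlap. A TRPV5-like channel (Mve02G000060), whose mammalian counterpart carries calcium, was at 48.2, 15.1 and 8.48 CPM. The acetylcholine receptor alpha-9/10 gene (Mve13G011880) was at 25.6, 12.3 and 6.41 CPM, the degenerin deg-1-like sodium channel gene (Mve09G004300) at 18.1, 9.92 and 4.07 CPM, and the betaine transporter-like gene (Mve05G016040), whose product takes up an osmolyte, at 19.1, 10.8 and 5.64 CPM. A neuronal acetylcholine receptor alpha-10-like gene (Mve10G006180) lay just outside the rule, with a first step of 1.498 and means of 12.2, 7.95 and 1.71 CPM.

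Genes of recognition, adhesion and immunity numbered 8 and held the widest range of ratios, from 3.02 to 64.4. A TRIM2-like gene (Mve11G002980), of a family of RING-finger proteins, read 33.9, 29.9 and 31.3 CPM in control and 0.597, 0.502 and 0.496 CPM at 4 mg/L. It had no count at 2 mg/L. Its ratio of 64.4 with the offset was the largest among the 8404 genes of the control minimum, and against the floor of 3 counts over the group it was at least 954-fold lower than in control, a bound subject to the same limit as that of MEIOB-like. With 0.532 CPM on average at 4 mg/L, its second step rests on few counts.

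A sialic acid binding lectin (Mve06G016050), of a class that recognises microbial sugars in molluscs, read 83.8, 83.6 and 72.7 CPM in control, 46.8, 45.2 and 37.4 at 4 mg/L, then 17.1, 17.6 and 18.0 at 2 mg/L. Ratios over 5 were also found in a microfibril-associated glycoprotein 4-like gene (Mve17G008230, 27.6, 12.1 and 3.67 CPM) and Cerebellin-1 (Mve03G015700, 25.1, 9.46 and 4.05 CPM). An SVEP1-like adhesion gene (Mve02G008710) was at 85.4, 53.5 and 20.3 CPM. Poly(ADP-ribose) polymerase 15 (Mve09G008590), of a family that attaches ADP-ribose to proteins, was at 123, 74.0 and 40.4 CPM, and at 3.02 its ratio was the smallest of the 100. Interferon-induced protein 44 (Mve11G000290) was at 31.2, 19.0 and 8.95 CPM. In these 7 the second step was the larger for all except Cerebellin-1, counting the LINGO4-like gene (Mve08G011250, 16.6, 10.05 and 3.75 CPM).

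The remaining named genes belong to small classes. An HSP70 12B-like gene (Mve09G013150), a distant relative of the heat shock chaperones, read 76.9, 75.5 and 76.8 CPM in control, 6.94, 7.41 and 6.33 at 4 mg/L, then 4.41, 3.63 and 3.32 at 2 mg/L. Nearly all of its difference lay in the first step, 10.4 against 1.72. A peptidyl-prolyl isomerase (Mve03G006550), which helps proteins fold, had the highest level per length of the named genes, 146 ± 6.69 FPKM in control, and was at 59.1, 28.8 and 16.7 CPM. Arrestin domain-containing 3-like (Mve05G015500), an adaptor in receptor trafficking, was at 15.5, 4.54 and 2.57 CPM.

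Amino acid enzymes were ornithine aminotransferase-like (Mve13G009560; 31.9, 17.2 and 8.37 CPM), a cytosolic dipeptidase (Mve16G007060; 29.6, 15.6 and 8.28 CPM) and the regulatory subunit of methionine adenosyltransferase (Mve09G003280; 23.8, 13.2 and 7.33 CPM). Sulfation was served by a transporter of the sulfate donor PAPS (Mve03G008380; 16.5, 6.56 and 3.32 CPM) and a carbohydrate sulfotransferase 5-like gene (Mve05G004320; 11.0, 4.77 and 2.49 CPM). A sulfatase of N-acetylgalactosamine-6-sulfate (Mve06G014580), which removes such groups in lysosomes, was at 23.4, 10.5 and 6.39 CPM. All 3 of these had the larger first step.

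Transcription was represented by 3 genes. Dachshund 1-like (Mve09G002910), a developmental co-repressor, read 21.2, 18.7 and 22.9 CPM in control, 12.9, 13.6 and 13.3 at 4 mg/L, then 2.86, 3.37 and 3.29 at 2 mg/L. Its second step of 3.75 was the largest of the 100, next to the upper limit of the rule. Enhancer of polycomb 1-like (Mve07G011290), of a histone acetyltransferase complex, was at 33.6, 15.7 and 9.18 CPM and a gastrula zinc finger-like gene (Mve12G005070) at 11.6, 7.49 and 2.91 CPM. Proteolysis and protein cross-linking gave a thymus-specific serine protease (Mve06G004930; 28.5, 13.3 and 7.85 CPM), a transglutaminase (Mve06G008990; 25.01, 12.7 and 7.44 CPM) and a tolloid-like 2 metalloprotease (Mve09G000990; 12.1, 7.72 and 3.59 CPM). Transposon-derived genes were HARBI1 (Mve10G006990; 11.4, 1.31 and 0.190 CPM) and a tigger element gene (Mve09G011240; 23.9, 15.0 and 6.56 CPM).

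**Figure D4:**
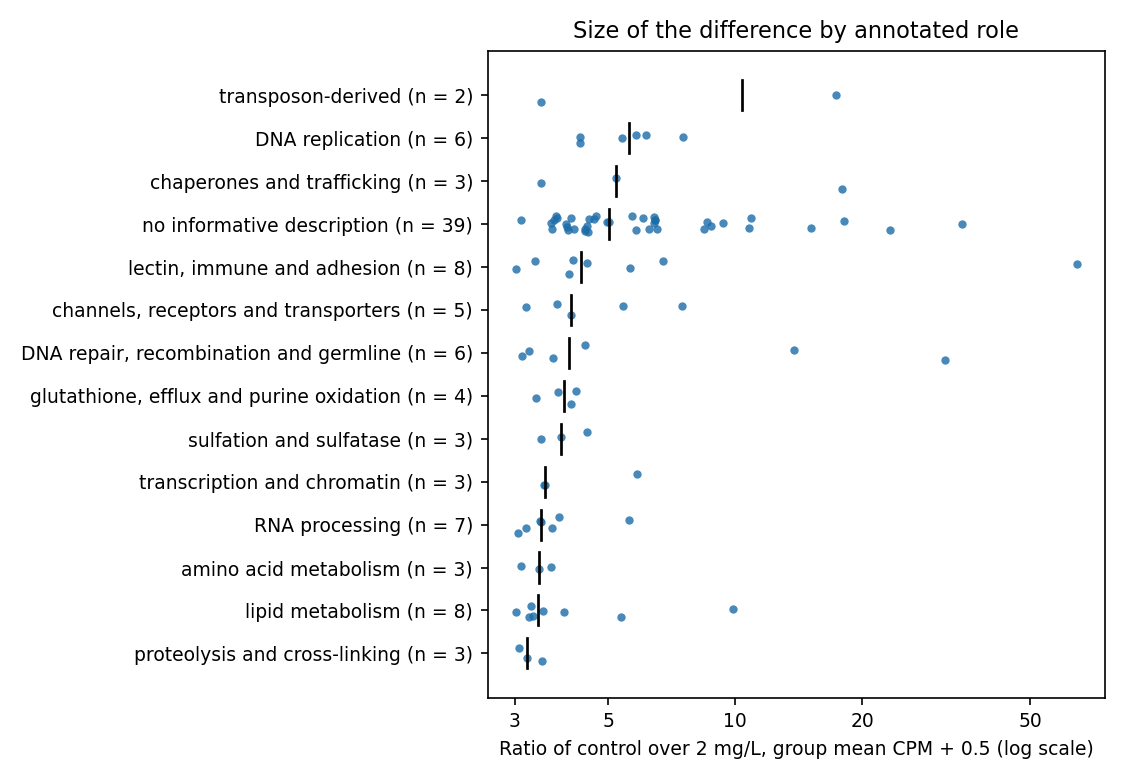
Ratio of control over 2 mg/L (group mean CPM + 0.5, log axis) of each of the 100 genes, by annotated role; each point is a gene, black bars are medians, and vertical scatter within a row has no meaning. Replication genes lie between 4.27 and 7.52, and the largest ratio, 64.4, is the TRIM2-like gene in the row of lectin, immune and adhesion genes.

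By role, assigned by hand from the descriptions after values were seen, the median ratio of control over 2 mg/L was 5.60 in DNA replication (n = 6), 5.02 in genes with no informative description (n = 39) and 4.30 in lectin, immune and adhesion genes (n = 8). It was 3.46 in RNA processing (n = 7) and 3.41 in lipid metabolism (n = 8). In the other roles it ran from 3.21 in proteolysis and cross-linking (n = 3) to 10.4 in transposon-derived genes (n = 2), with 5.21 in chaperones and trafficking (n = 3). The 6 replication ratios lay between 4.27 and 7.52, with MCM8-like, at 13.7, counted under DNA repair. Some other roles had narrower ranges, such as glutathione, efflux and purine oxidation (3.38 to 4.19, n = 4). The genes with no informative description ran from 3.11 to 34.5, and in 27 of the 39 the first step was the larger.

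Those 39 genes made up a large share of the 100 and held the most abundant one. Informative descriptions covered 61% of the 100 and 68.0% of the 8404 genes. A gene with no description, Mve08G006370 (chromosome 8, 19547787 to 19550992, plus strand), had the highest level per length, 301 ± 11.3 FPKM in control (SD, n = 3). It read 122, 123 and 131 CPM in control, 32.7, 38.8 and 34.8 at 4 mg/L, then 13.4, 15.1 and 14.1 at 2 mg/L. Mve01G000180 (140, 41.4 and 16.2 CPM) and Mve17G002480 (118, 27.8 and 10.5 CPM) also lacked a description, and both had ratios over 8. Mve01G014490, an uncharacterized protein, read 38.2, 37.9 and 34.5 CPM in control, 1.67, 3.55 and 1.55 at 4 mg/L, then 0.508, 0.477 and 0.767 at 2 mg/L, a ratio of 34.5, next to that of the TRIM2-like gene.

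Some of the unnamed genes carry other annotation in the deposited table, and they are given here for that reason, with values known. Mve15G009450 has the enzyme class of the proteasome's peptidase and was at 123, 39.8 and 19.3 CPM. Mve10G006340 (14.2, 0.459 and 0.134 CPM) and Mve18G004210 (10.4, 1.79 and 0.219 CPM) both have that of chitinase, the enzyme that splits chitin. Mve16G012760 has that of a chondroitin sulfotransferase (23.4, 9.51 and 5.47 CPM), beside the named sulfation genes. Mve07G012750, with GO terms of uracil removal from DNA and the KEGG pathway of base excision repair, was at 52.7, 23.6 and 12.4 CPM. Mve01G018950, with GO terms of the kinetochore and the spindle checkpoint, was at 23.2, 9.99 and 5.76 CPM. Mve14G013800, with a GO term of cysteine peptidases in apoptosis, was at 64.7, 20.7 and 9.51 CPM.

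In all, 72 of the 100 genes had a GO term and 40 a KEGG entry, beside 75% and 31.1% of the 8404 genes. The GO terms held by most were broad: cytoplasm (15 genes, 14.0% of the 8404), nucleus (12 genes, 12.1%) and nucleoplasm (9 genes, 4.03%). After DNA replication, the KEGG entries held by most had 3 genes each, in drug metabolism, unsaturated fatty acids, spliceosome, base excision repair, nucleotide excision repair and mismatch repair. PCNA and the polymerase subunit are counted in all 3 repair pathways as well as in replication.

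Genes outside the 100 that share a description with one of its members numbered 382, of which 222 were tested, 167 of them in the descriptions TRIM2, SVEP1, HSP70 12B, HARBI1 and IFI44. By edgeR 112 fell and 62 rose at 4 against 7.5 mg/L (50.5% lower, beside 34.5% of all genes). From 4 to 2 mg/L, 103 rose and 61 fell (46.4% higher, beside 31.6% of all genes). At 2 against 7.5 mg/L 95 fell and 60 rose (42.8% lower, beside 32%). In the 55 tested relatives of the other descriptions 24 fell and 17 rose at 4 mg/L, 26 rose and 19 fell from 4 to 2 mg/L, and 24 fell and 14 rose at 2 against 7.5 mg/L. Copies of like sequence may share reads, and the labels do not say how the counting divided them.

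A second ZIP10 gene (Mve07G000280) read 394, 396 and 384 CPM in control, 860, 853 and 815 at 4 mg/L, then 680, 681 and 702 at 2 mg/L. It rose by 1.18 on the log2 scale at 4 mg/L and by 1.01 at 2 mg/L against control (edgeR adjusted p = 8.84e-15 and 8.93e-14), where the stepwise ZIP10 was lower at each level.

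The rho glutathione S-transferase has an adjacent gene of the same description, 94496 to 99630 on the same contig, at 99.5, 176 and 62.4 CPM. That neighbour rose by 0.89 on the log2 scale at 4 mg/L and fell by 1.36 from 4 to 2 mg/L (edgeR adjusted p = 1.06e-10 and 6.52e-13). Another copy on chromosome 9 (Mve09G007630) was at 50.3, 54.6 and 20.8 CPM, did not pass at 4 mg/L (edgeR adjusted p = 0.0568) and fell from 4 to 2 mg/L (adjusted p = 2.11e-09). A relative of poly(ADP-ribose) polymerase 15 (Mve09G008550), in contrast, stepped down like the stepwise gene. It read 124, 120 and 120 CPM in control, 102, 102 and 91.6 at 4 mg/L, then 54.5, 49.8 and 48.7 at 2 mg/L.

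**Figure D5:**
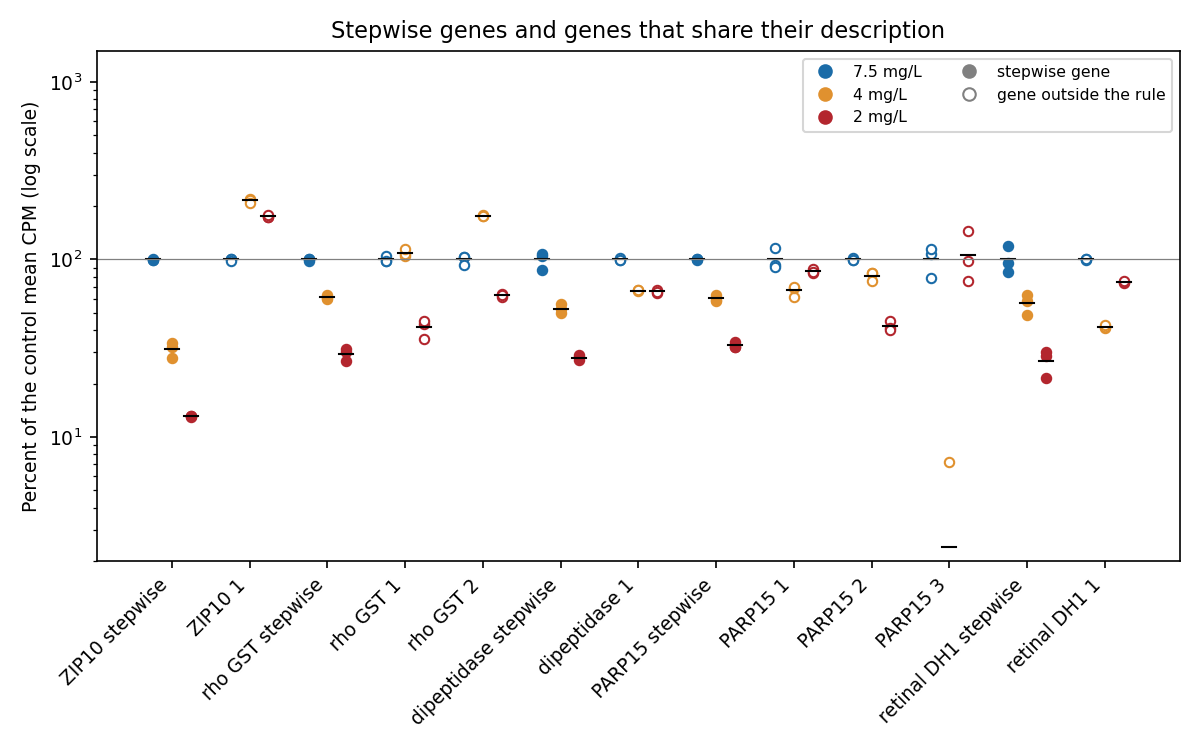
CPM in each library as a percent of the gene's control mean (log axis) for 5 stepwise genes (filled) and the tested genes that share their description (open), at 7.5 (blue), 4 (orange) and 2 mg/L (red); bars are group means, the grey line is 100 percent, and 2 libraries of the third PARP15 relative at 4 mg/L read 0 and cannot be drawn. Filled points step down in every case, and so do the open points of the second PARP15 relative. Open points of ZIP10 and of both rho transferases lie above the line at 4 mg/L, those of the first rho transferase by little.

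The relatives with the highest levels went several ways. A TRIM2 gene (Mve11G008840) rose from 1197 ± 33.8 to 1657 ± 23.6 and 5894 ± 52.0 CPM (SD, n = 3; edgeR adjusted p = 3.19e-19 at 2 against 7.5 mg/L), where the stepwise TRIM2-like gene had no count at 2 mg/L. Of 35 tested SVEP1 genes 18 fell and 9 rose at 2 against 7.5 mg/L by edgeR, beside 32% lower and 31.5% higher of all genes tested. Among the most abundant of them 3 rose at 2 against 7.5 mg/L, from 1642, 1431 and 964 CPM to 2074, 2274 and 1971 CPM, and another (Mve03G003240) fell from 532 to 284 CPM. A retinal dehydrogenase 1-like gene (Mve10G004900) fell from 2180 to 913 CPM at 4 mg/L and stood at 1625 CPM at 2 mg/L. A peptidyl-prolyl isomerase (Mve10G002950) was at 967, 462 and 516 CPM, and a cytosolic dipeptidase (Mve16G007040), 2 genes away from the stepwise one in the numbering of the table, at 550, 368 and 363 CPM. In the dehydrogenase and the isomerase the level at 2 mg/L was above that at 4 mg/L, in the dipeptidase near it, and each was called lower at 2 than at 7.5 mg/L by edgeR.

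The 100 genes were spread over all 19 chromosomes and 1 unplaced contig, with 10 on chromosome 6 and 9 on chromosome 1. Of the 100, 4 lay next to another in the annotation, while 0.821% of the 8404 genes had one of the 100 as a neighbour. The MCM7-like gene and ZIP10 are neighbours on the minus strand of chromosome 15, 12941 bp apart. Mve08G011240, which has GO terms of a tyrosine phosphatase (90.7, 54.1 and 15.2 CPM), and the LINGO4-like gene lie 4384 bp apart on the plus strand of chromosome 8. Of 128 tested neighbours outside the 100, edgeR called 44 lower at 4 against 7.5 mg/L (34.4%), 51 lower at 2 against 4 mg/L (39.8%) and 48 lower at 2 against 7.5 mg/L (37.5%). Over all genes tested these shares were 34.5%, 32.1% and 32%. The 100 genes were shorter than the 8404, with a median span of 10178 against 13125 bp and a median transcript length behind FPKM of 1942 against 2368 bp.

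In a tissue sample, fewer cells of a type and less RNA per cell cannot be told apart. Summed markers of several cell types moved with oxygen. Those of ciliated epithelium (94 genes) were at 11427, 9481 and 8945 CPM in control, at 4 and at 2 mg/L, and those of mucous and gland cells (40 genes) at 4778, 2703 and 2967 CPM. Haemocyte markers (17 genes) were at 2427, 4008 and 1588 CPM and muscle markers (48 genes) at 5332, 5132 and 13277 CPM. Neuron markers (97 genes) were at 2466, 2156 and 2127 CPM, digestive gland markers (70 genes) at 4142, 4293 and 3513 CPM and mantle and shell markers (50 genes) at 235, 154 and 283 CPM. Of these lists the ciliated and the neuron sums were lower at each step in CPM of library totals, as was the gonad sum above. TMM scaling, used for the edgeR tests, multiplies 4 over 2 mg/L ratios by 0.914. That takes the second step of each of these sums below 1, so its direction depends on the scaling. Of 42 tested neuron genes edgeR called 19 lower and 9 higher at 4 against 7.5 mg/L (45.2% lower, beside 34.5% of all genes), but 5 lower and 21 higher from 4 to 2 mg/L (11.9% lower, beside 32.1%). By edgeR 47 of the 90 tested ciliated genes fell and 16 rose at 4 against 7.5 mg/L (52.2% lower, beside 34.5%). From 4 to 2 mg/L 19 fell and 31 rose (21.1% lower, beside 32.1%), a balance that turned to 31 lower and 21 higher under total-count scaling. The part of a changed cell makeup in the values of the 100 genes was not tested.

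At the edges of the rule, the genes just inside and just outside differed by little. The first step was 1.507 in Mve16G006120, inside, and 1.493 in Mve07G002310, outside. The second was 1.504 in IMP3-like, inside, and 1.493 in Mve08G006450 and 1.48 in a kelch domain-containing 8B-like gene (Mve11G005540), outside. At its upper limit, kelch-like protein 40 (Mve14G010040; 22.0, 11.6 and 2.50 CPM) lay outside at 4.02 and a putative copper amine oxidase (Mve07G000040) at 4.05. The ratio of control over 2 mg/L was 3.02 in poly(ADP-ribose) polymerase 15, inside, and 2.99 in Mve07G013420, a zinc finger gene, and 2.97 in a low-density lipoprotein receptor-related 4-like gene (Mve15G005050), outside. Mve13G013070, at 9.42 CPM in control, lay just under the control minimum. Another 174 genes met all limits except that of the second step at its lower end, 39 all except the first step, 40 all except the total and 93 all except the control minimum.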

How the data were processed

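The deposited table holds raw counts and FPKM for 24722 genes in 9 libraries, and all 18 value columns were used. The counts are whole numbers that the authors left unscaled, per the file headers. FPKM values were scaled by the authors for length and library, per the file headers. Per the submitters' processing notes, cutadapt 1.9, HISAT2 2.2.1, StringTie 2.1.6, DESeq2 and edgeR were used, the last 2 with no stated role. Libraries were made with a dUTP second strand, per the labels' protocols. Whether counting used strand was not given in the sources used here, nor was the genome build, so coordinates are those of the table. Repeated or copied genes may share reads.

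The 100 genes, the gene lists and the roles were chosen with earlier results of these data known. Counts were divided by library totals, and 0.5 CPM was added to group means. For genes outside the 100, edgeR 4.0.16 (R 4.3.3) fitted TMM-scaled counts of all 9 libraries by quasi-likelihood, for the 15397 genes that averaged 1 FPKM or more (99 of the 100 passed), with Benjamini-Hochberg adjustment and a threshold of 0.05. Its common biological coefficient of variation came to 11.8%. The procedure was tested on simulated data. Alternatives used limma 3.58.1 and DESeq2 1.42.0. Lists were word patterns matched to descriptions.

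Genes named by rule were members with an informative description: the 10 of highest control FPKM, the 10 of largest ratio and, in each list, the 4 of highest control CPM, which gave 41 genes. Also named by rule were the 2 genes nearest each limit on either side and, among genes sharing a description with a member, the 4 of highest mean CPM called in each direction at 2 against 7.5 mg/L. Every other gene in the text was named after its values were seen. One gene named by that rule is not reported here.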

Additional observations from a re-analysis of the deposited data

How the results depend on the processing

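The number of stepwise genes depended on the limits: 57 with a control minimum of 20 CPM, 153 with both steps at least 5/4 and 23 with both at least 2, in place of 100. Scaling by TMM multiplied control over 4, 4 over 2 and control over 2 mg/L by 0.952, 0.914 and 0.870, which left 74 genes, 72 of them among the 100. Median-of-ratios scaling left 70 (68 shared), FPKM ratios 82 (79 shared) and the other limits tried 92 to 150. Without 1 library there were 95 to 105 genes, 87 to 96 of them shared. Without 1 replicate number of every level, an alternative chosen after seeing the data, there were 96 to 103, and 81 to 84 were shared. The 95 genes with ordered libraries became 92 under either scaling. Of 328 ratios of the 41 genes named by rule, 290 moved by less than 1 SD, 38 by more and none changed direction. No library left out moved such a ratio by more than 1.38 times.

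Among all genes tested, edgeR called 10760 at 4 against 7.5 mg/L, 9813 at 2 against 4 mg/L and 9771 at 2 against 7.5 mg/L. With a filter of 5 FPKM these became 6248, 5923 and 5975, since fewer genes were tested. Total-count scaling shifted the median log2 change by -0.07, -0.13 and -0.20 in these comparisons. At 2 against 7.5 mg/L it made 35.9% of calls higher, 3709 against 6621 lower, where TMM gave 49.6% (4847 against 4924). In the gene lists, outside the 100, the same comparison had 959 higher and 1787 lower under total counts and 1291 and 1328 under TMM.

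With the replicate number as a block (replicate block) edgeR called 10519, 9531 and 9508 genes. Deviations from the group means correlated at -0.027 to 0.0065 between libraries of the same number, so no shared shift was seen. Such values cannot exclude that the numbers pair the libraries. At means below 1 CPM a few counts set the second step, and sequence copies cannot be separated here.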
